A study of Mus musculus with 8 samples.

Results

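The tricarboxylic acid cycle enzymes described here are 9 genes (Cs, Idh3a, Idh3b, Idh3g, Ogdh, Suclg1, Sucla2, Fh1 and Mdh2) out of 20660 genes named on the array. They were chosen by name, and a probe belonged to a member if it was not a control spot and its RefSeq accession was that of the gene, which gave 11 probes, 3 of them for Ogdh. Transcript levels were measured in gastrocnemius and tibialis anterior (TA) muscle of Eif6+/- (Het) and wild-type (WT) mice on 8 Agilent arrays that carry 2 dyes, 4 for each muscle. Each array held RNA of 1 Eif6+/- mouse, labelled with Cy5, and of 1 WT mouse, labelled with Cy3, paired at random, and the mice were male C57BL6 littermates aged 8 to 16 weeks. The allele was carried in every cell of the body, so a value in muscle need not come from the muscle's own loss of Eif6. Cy5 always went with Eif6+/- and Cy3 with WT, so an effect of genotype and an effect of dye cannot be told apart. The 8 arrays shared 1 slide, with gastrocnemius in row 1 and TA in row 2, and the muscle and its row cannot be told apart. All 11 probes were well above background in both channels on all 8 arrays, and all 9 genes therefore passed the filter on dim probes. The brightest probe of each member had a mean signal above that of 96.9% to 99.8% of the genes tested in both muscles. Shares and medians over all genes below therefore come mostly from dimmer genes. No spot was saturated, and the number of arrays limits the precision.

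The tricarboxylic acid cycle oxidizes the acetyl group of acetyl-CoA in the mitochondrial matrix and passes the electrons to the respiratory chain as NADH and FADH2. Citrate synthase joins acetyl-CoA to oxaloacetate, isocitrate dehydrogenase and the oxoglutarate dehydrogenase complex release carbon dioxide, succinyl-CoA ligase makes a nucleoside triphosphate, and fumarase and malate dehydrogenase restore oxaloacetate. In skeletal muscle the enzymes are abundant in fibres rich in mitochondria, and citrate synthase activity is widely used as a measure of mitochondrial content.

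In gastrocnemius, 3 of the 9 members (Cs, Fh1 and Mdh2) were higher in Eif6+/- than in WT muscle and 0 were lower, by limma with a Benjamini-Hochberg adjusted p under 0.1 over all probes tested. Among all 12610 genes tested there, 9.89% were called higher and 5.55% lower. In TA, 2 of the 9 (Cs and Mdh2) were higher, beside 8.98% of 12380 genes, and 2 (Ogdh and Suclg1) were lower, beside 7.27%. The median log2 ratio of Eif6+/- over WT was 0.30 over the 9 members in gastrocnemius and 0.08 in TA, where the medians over all genes tested were 0.020 and 0.019. Without pair 1 of the muscle, the middle of the 9 values was 0.16 in gastrocnemius (Idh3a) and 0.04 in TA (Fh1). The counts of called members also moved when an array was left out. In gastrocnemius 2 members were called without pair 1 (14.1% of all genes), 5 without pair 2 (10.7%) and 0 without pair 3 or pair 4, where limma called 0 of 12610 genes in all although 2427 and 2657 had an unadjusted p under 0.05. In TA limma called 0 members when pair 1 or pair 2 was missing, where 68 and 532 of 12380 genes were called and 2207 and 2824 had an unadjusted p under 0.05. Without TA pair 3 only Cs was called (9.59% of all genes), and without pair 4 the calls were Ogdh, Suclg1 and Mdh2 (16.3%). A normexp offset of 0 in place of 50 in the background correction left 0 of the 4 TA calls by limma, with 1205 genes still called and 3225 at an unadjusted p under 0.05, and a single fit over all 8 arrays left only that of Cs (13.3% of genes).

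**Figure D1:**
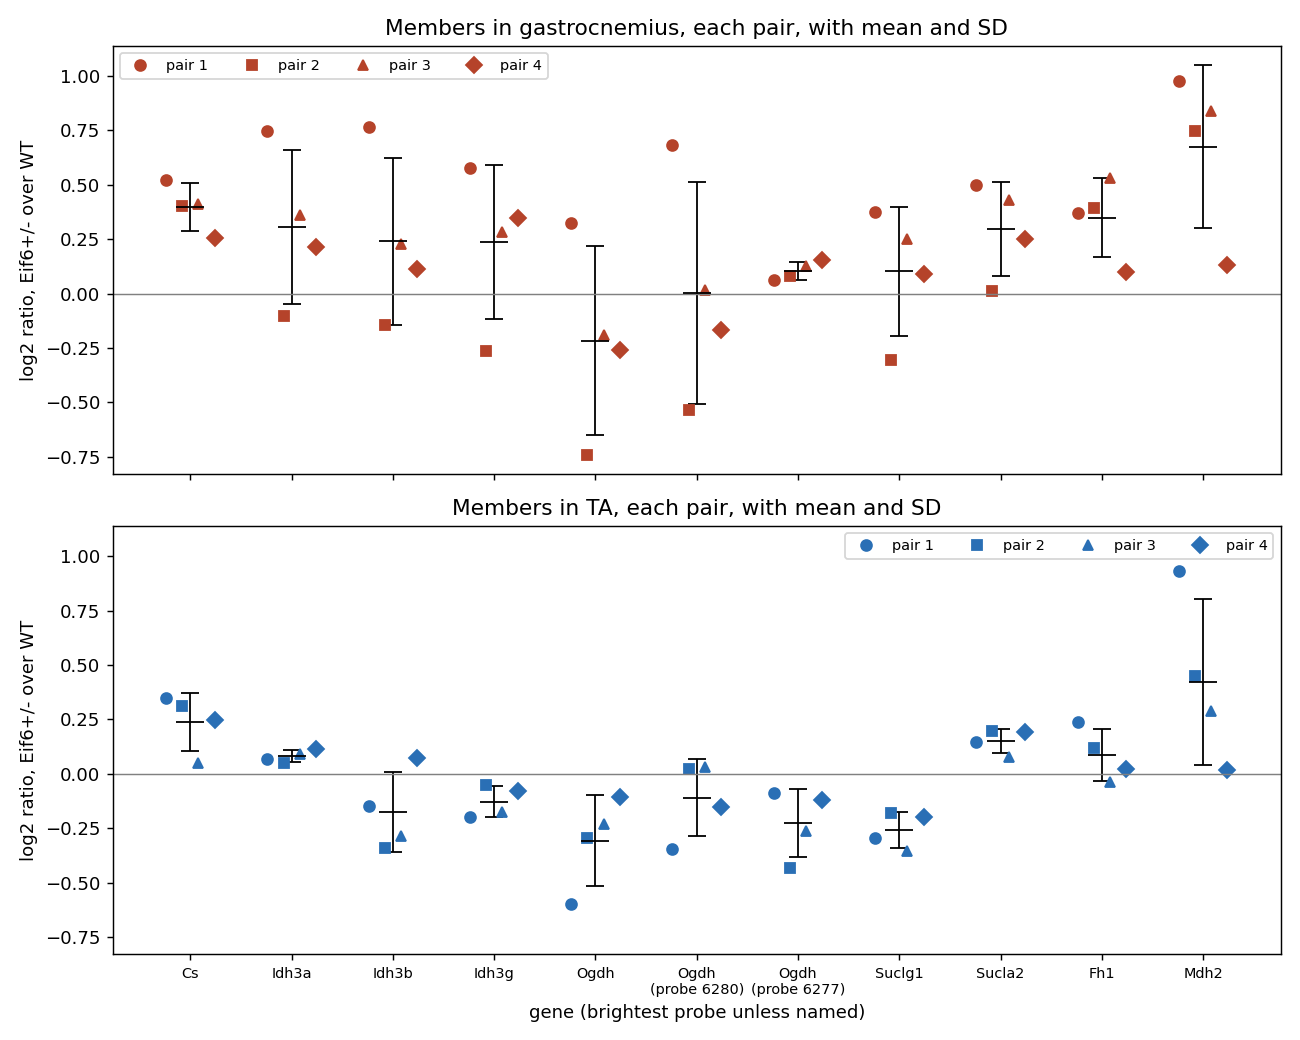
Log2 ratio of Eif6+/- over WT (vertical axis) of the 11 probes of the 9 members in gastrocnemius (top) and TA (bottom). Each point is 1 pair of mice, and the bar and whiskers are the mean and SD of 4 pairs. Cs, Sucla2 and Mdh2 lie above 0 on all 8 arrays. Suclg1, Idh3g and the Ogdh probes A_55_P2006281 and A_55_P2006277 lie below 0 on all 4 TA arrays.

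Eif6 itself served as the check of the genotype labels. Its log2 ratio lay between −1.32 and −0.80 over both of its probes and all 8 arrays. Its brightest probe had a mean of −1.02 ± 0.11 in gastrocnemius (SD, n = 4 pairs; limma adjusted p = 0.0239) and of −0.999 ± 0.17 in TA (SD, n = 4 pairs; limma adjusted p = 0.0108). Leaving out gastrocnemius pair 3 or pair 4 raised the adjusted p there to 0.121 and 0.155, while it stayed at 0.0988 or lower with any TA pair left out. It is not known here whether these probes lie within the stretch that was inactivated. The marker genes of skeletal muscle fibres (Ckm, Acta1, Mb, Des and Ryr1) were well above background in both channels on all 8 arrays.

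Cs encodes citrate synthase, which opens the cycle. Its log2 ratios in gastrocnemius were 0.52, 0.40, 0.41 and 0.25 in pairs 1 to 4. In TA they were 0.35, 0.31, 0.05 and 0.25. All 8 values were above 0, and the ranges of the muscles overlapped. The mean was 0.40 in gastrocnemius (SE 0.076, adjusted p = 0.0397), a level 1.32 times that of WT, and 0.24 in TA (SE 0.076, adjusted p = 0.0926), or 1.18 times. Leaving out pair 3 or pair 4 of gastrocnemius gave adjusted p values of 0.144 and 0.155 there. In TA the value was close to the threshold, and with a pair left out in turn it stayed called only without pair 3 (adjusted p = 0.0913; 0.148 to 0.313 without each of the others).

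The NAD-dependent isocitrate dehydrogenase has a catalytic subunit, encoded by Idh3a, with partner subunits encoded by Idh3b and Idh3g. In gastrocnemius the log2 ratios of Idh3a were 0.75, −0.10, 0.36 and 0.21 in pairs 1 to 4. Those of Idh3b were 0.76, −0.14, 0.23 and 0.11. Those of Idh3g were 0.58, −0.26, 0.28 and 0.35. Pair 1 was the highest and pair 2 the lowest for each of the 3 subunits, and pair 2 was the only pair below 0. The means were 0.30 (SD 0.35, adjusted p = 0.194), 0.24 (SD 0.38, adjusted p = 0.319) and 0.24 (SD 0.35, adjusted p = 0.302), so none passed the threshold. Without pair 2, Idh3a (0.44, adjusted p = 0.0955) and Idh3g (0.40, adjusted p = 0.0774) passed it. Without pair 1 the means fell to 0.16 for Idh3a (adjusted p = 0.416), 0.06 for Idh3b (0.732) and 0.12 for Idh3g (0.600). In TA the Idh3a ratios kept to a narrow range, at 0.07, 0.05, 0.09 and 0.11 (mean 0.08, SD 0.028, adjusted p = 0.453), although the mean was −0.0089 with loess normalization alone. The Idh3b ratios there were −0.15, −0.34, −0.29 and 0.07 (adjusted p = 0.216), and the Idh3g ratios were −0.20, −0.05, −0.18 and −0.08 (adjusted p = 0.263). Idh3g was thus below 0 in all 4 TA pairs and Idh3b in 3, but neither passed the threshold. The TA mean of Idh3g lay between −0.25 and −0.10 over the 16 alternatives. Idh3b did pass with processed signals (mean −0.40) and with loess alone (adjusted p = 0.0927), whose log2 ratios Aquantile normalization leaves as they are.

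Ogdh encodes the oxoglutarate-binding subunit of the oxoglutarate dehydrogenase complex, and its 3 probes, which share a RefSeq accession, differed. The probe A_55_P2006277 was dim, with a mean log2 signal of 7.80, above that of 34.7% of the genes tested in both muscles. The mean signals of A_55_P2006281 and A_55_P2006280 were 14.6 and 14.4. For the brightest probe (A_55_P2006281) the TA log2 ratios were −0.60, −0.30, −0.23 and −0.11. The mean of −0.31 (SE 0.090, adjusted p = 0.0758) passed the threshold, with all 4 pairs below 0, but the adjusted p was 0.275, 0.176 and 0.121 without pair 1, 2 or 3. The probe A_55_P2006280 gave −0.34, 0.02, 0.03 and −0.15 in TA (mean −0.11, adjusted p = 0.421), and its pairs lay on both sides of 0. The probe A_55_P2006277 gave −0.09, −0.43, −0.26 and −0.12 (mean −0.23, adjusted p = 0.116). The TA call of Ogdh therefore rested on 1 of its 3 probes. In gastrocnemius the brightest probe gave 0.32, −0.74, −0.19 and −0.26 (mean −0.22, SD 0.43, adjusted p = 0.412), and A_55_P2006280 gave 0.68, −0.53, 0.02 and −0.17. The mean of the brightest probe was −0.40 without pair 1 and −0.04 without pair 2. The remaining probe was above 0 in all 4 gastrocnemius pairs, between 0.06 and 0.15, and was not called (adjusted p = 0.372). Pair 1 was the highest and pair 2 the lowest for both of the brighter probes and not for the third.

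Succinyl-CoA ligase pairs the subunit encoded by Suclg1 with a partner that sets the nucleotide, and Sucla2 encodes the partner that makes ATP. Suclg1 was lower in Eif6+/- TA. Its log2 ratios there were −0.29, −0.18, −0.36 and −0.20, all below 0, with a mean of −0.26 (SE 0.069, adjusted p = 0.0635). It was no longer called without pair 1, 2 or 3 (adjusted p = 0.232, 0.134 and 0.163). In gastrocnemius they were 0.37, −0.31, 0.25 and 0.09, on both sides of 0 (mean 0.10, SD 0.30, adjusted p = 0.615). That mean was 0.01 without pair 1 and 0.24 without pair 2. Sucla2 was above 0 on all 8 arrays without passing the threshold in either muscle, though it passed in gastrocnemius when pair 2 was left out (0.39, adjusted p = 0.0748). Its ratios were 0.50, 0.01, 0.43 and 0.25 in gastrocnemius (mean 0.30, SE 0.097, adjusted p = 0.110). In TA they were 0.15, 0.19, 0.08 and 0.19 (mean 0.15, SE 0.067, adjusted p = 0.183). The TA means of Suclg1 and Sucla2 were thus of opposite sign, and of these only that of Suclg1 passed the test. With processed signals the TA mean of Sucla2 was 0.0061.

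Fh1 encodes fumarase, and Mdh2 encodes the mitochondrial malate dehydrogenase that closes the cycle. The log2 ratios of Fh1 in gastrocnemius were 0.37, 0.39, 0.53 and 0.10, all above 0, with a mean of 0.35 (SE 0.089, adjusted p = 0.0651). Fh1 was called with none of the 4 pairs left out in turn (adjusted p between 0.110 and 0.220). In TA they were 0.24, 0.12, −0.04 and 0.02 (mean 0.09, adjusted p = 0.482). Over the 16 alternatives that mean lay between 0.0051 and 0.13. The TA values were spread around 0 and overlapped those of gastrocnemius. Mdh2 had the highest mean log2 ratio of the 9 members in both muscles. Its values in gastrocnemius were 0.98, 0.75, 0.84 and 0.13 (mean 0.67, SD 0.37, moderated SE 0.137, adjusted p = 0.0436), a level 1.60 times that of WT. In TA they were 0.93, 0.45, 0.29 and 0.02 (mean 0.42, SE 0.131, adjusted p = 0.0864), or 1.34 times. Mdh2 was not called in gastrocnemius without pair 3 (adjusted p = 0.168) or pair 4 (adjusted p = 0.155), and in TA it was called without pair 4 alone (adjusted p = 0.0472). The TA mean was 0.25 without pair 1 (adjusted p = 0.286). Pair 4 was the lowest of its muscle both times and close to 0 in TA, where the SD of 0.38 was nearly as large as the mean.

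The sequences upstream of the transcription starts of the 3 genes called higher in gastrocnemius are shown because these 3 passed the test in the same direction, although none of them did without pair 3 or pair 4. RefSeq starts (GRCm38.p6) matched 8 of the 9 members, with Idh3a not matched, and the 250 bases before the start are printed 5′ to 3′ on the gene's strand. Cs lies at chr10:128337477-128337726, plus strand, Fh1 at chr1:175625636-175625885, minus strand and Mdh2 at chr5:135778399-135778648, plus strand. Capitals mark matches, on either strand, to the ERR motif AAGGTCA, the NRF1 core GCATGCG, the ETS core CCGGAAG, the YY1 core ATGGCGG, the CCAAT box, the CRE core TGACGT or the GC box GGGCGG, and matches can overlap.
Cs: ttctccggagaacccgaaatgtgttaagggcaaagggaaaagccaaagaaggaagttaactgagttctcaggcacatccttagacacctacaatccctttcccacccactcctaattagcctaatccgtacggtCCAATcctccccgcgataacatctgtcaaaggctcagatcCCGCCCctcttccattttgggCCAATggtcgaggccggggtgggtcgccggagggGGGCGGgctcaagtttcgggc
Fh1: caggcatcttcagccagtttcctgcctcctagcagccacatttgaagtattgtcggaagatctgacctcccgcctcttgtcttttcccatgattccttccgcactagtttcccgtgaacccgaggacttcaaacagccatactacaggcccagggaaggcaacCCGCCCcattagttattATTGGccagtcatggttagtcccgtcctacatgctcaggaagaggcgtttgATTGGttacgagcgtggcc
Mdh2: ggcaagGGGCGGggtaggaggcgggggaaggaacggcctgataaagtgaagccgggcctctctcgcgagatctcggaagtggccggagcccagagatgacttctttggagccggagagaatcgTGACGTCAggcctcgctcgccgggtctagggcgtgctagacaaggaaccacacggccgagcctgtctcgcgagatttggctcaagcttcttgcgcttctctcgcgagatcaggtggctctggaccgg
CCAAT occurred 2 times in the window of Cs and 2 times in that of Fh1, and 33.8% of all 32851 windows of this length held it. GGGCGG occurred 2 times for Cs, 1 time for Fh1 and 1 time for Mdh2, and 32.7% of windows held it. TGACGT was counted 2 times for Mdh2, with the matches overlapping on opposite strands, and 6.47% of windows held it. It was also found 2 times for Idh3g and 3 times for Ogdh, neither of which was called higher, and the other motifs were likewise not limited to these 3 genes, since CCAAT occurred 2 times for Ogdh and 1 time for Idh3b, and GGGCGG 1 time for Sucla2. The 3 windows held no AAGGTCA (4.08% of windows), GCATGCG (3.02%), CCGGAAG (6.91%) or ATGGCGG (2.21%), which says only that these letters were not there.

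The members' log2 ratios differed from pair to pair in gastrocnemius. Pair 1 was the highest of the 4 for 8 of the 9 members, pair 2 was the lowest for 6, and pair 4 was the lowest for the other 3 (Cs, Fh1 and Mdh2). The median log2 ratio over the members was 0.52, −0.10, 0.36 and 0.13 in gastrocnemius pairs 1 to 4 and 0.07, 0.05, −0.04 and 0.02 in TA pairs 1 to 4. In pair 2 of gastrocnemius the log2 ratios of Cs, Fh1 and Mdh2 were 0.40, 0.39 and 0.75, while those of Idh3a, Idh3b, Idh3g, Suclg1 and the brightest Ogdh probe were below 0. Over the WT channels of gastrocnemius, the mouse of pair 1 had the lowest level for 6 of the 9 members, with that of pair 3 at the same level for Suclg1. In TA the Eif6+/- mouse of pair 3 had the lowest level for 9 of 9 members, and its WT partner for 6 of 9. That Eif6+/- sample also had the highest summed level of the 6 connective-tissue markers in TA, 17.4 on the log2 scale beside 15.7 to 16.23 in the other 3. The log2 of this summed level differed between the mice of a pair by 2.13 in TA pair 3 and by −1.36 in gastrocnemius pair 3, and the most abundant gene, Col1a2, by 2.62 and −1.31. The part of connective tissue in the members' values was not tested.

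Fibre-type markers also differed between the mice of a pair. The most abundant slow-fibre marker, Myl3, had log2 ratios of 3.0, −1.29, 0.74 and −0.11 in gastrocnemius pairs 1 to 4 and 0.08, −0.39, −0.08 and −1.47 in TA. The log2 of the summed level of all 9 slow-fibre markers differed by 2.90, −1.02, 0.13 and −0.18 in gastrocnemius and by 0.04, −0.47, 0.03 and −1.29 in TA. Myh2, the myosin of IIA fibres, had log2 ratios of 3.92, 0.52, 1.41 and 0.62 in gastrocnemius and 1.44, −0.04, 0.34 and −1.55 in TA. In gastrocnemius the pair with the highest median over the members was also the highest for Myl3 and Myh2, and the pair with the lowest median was the lowest for both. In TA this did not hold for the lowest pair, since the members' median was lowest in pair 3 (−0.04) and Myl3 and Myh2 were lowest in pair 4. None of the 9 slow-fibre markers was called in gastrocnemius, and 4 were called lower in TA. The part of fibre make-up in the members' ratios was not tested, and in whole muscle fewer fibres of a type and less RNA per fibre cannot be told apart.

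**Figure D2:**
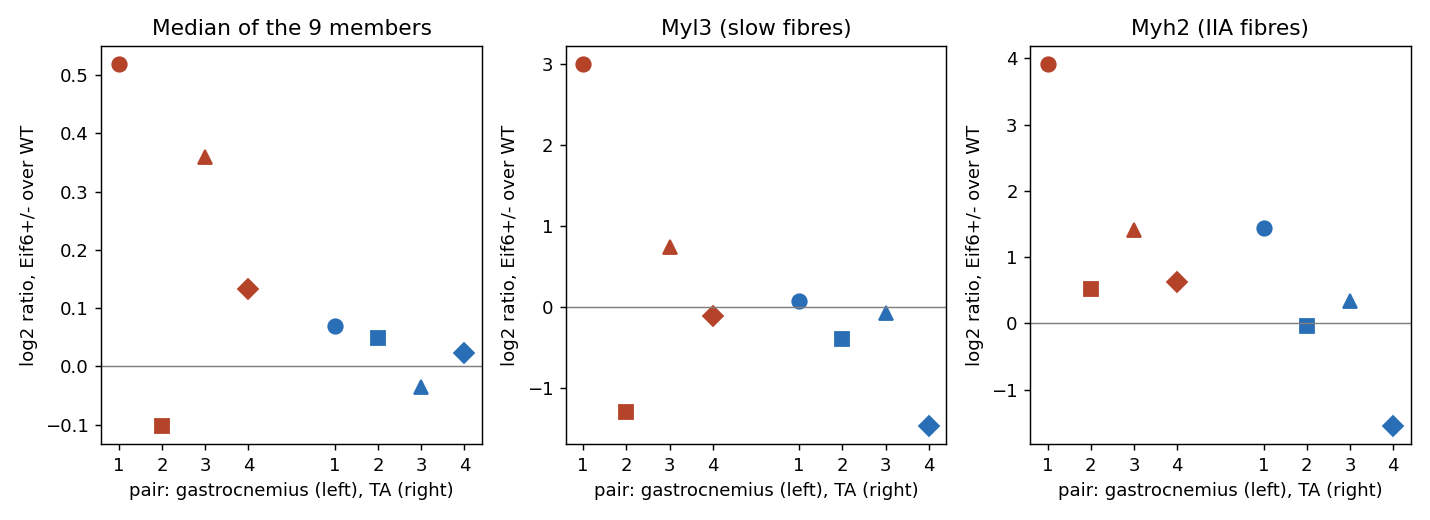
Log2 ratio of Eif6+/- over WT (vertical axes, with different scales) in each pair of mice for the median of the 9 members, for Myl3 and for Myh2. Gastrocnemius pairs 1 to 4 are on the left of each panel and TA pairs 1 to 4 on the right; pair 1 of gastrocnemius is the highest in all 3 panels, at 0.52, 3.0 and 3.92.

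Whether the log2 ratios differed between the muscles was tested as gastrocnemius minus TA over all 8 arrays. The difference was above 0 for all 9 members, from 0.09 for Ogdh to 0.42 for Idh3b (that of Ogdh was −0.09 without gastrocnemius pair 1 and −0.0065 without TA pair 1), with a median of 0.25 beside 0.0072 over all 12202 genes tested. Without gastrocnemius pair 1 the difference was 0.24 for Idh3b, 0.08 for Idh3a and 0.08 for Sucla2. The middle of the 9 values was then 0.15 (Mdh2). With all 8 arrays limma called 0 of the 9, beside 0% of all genes, and the members' adjusted p lay between 0.635 and 0.926. At an unadjusted p under 0.05 there were 4 members (Idh3b, Idh3g, Suclg1 and Fh1) and 999 genes. For Idh3b the 95% interval of the difference ran from 0.02 to 0.81, for Suclg1 from 0.05 to 0.67, and for Mdh2 from −0.22 to 0.73. The values for each pair overlapped between the muscles for all 9 brightest probes. Only the dim Ogdh probe A_55_P2006277 had ranges that did not overlap, above 0 in gastrocnemius and below 0 in TA, with a difference of 0.33 (adjusted p = 0.635). Ogdh and Suclg1, called lower in TA alone, and Fh1, called higher in gastrocnemius alone, are therefore not shown to differ between the muscles.

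Levels in the muscles were compared within each genotype on the single-channel values, so that the same dye stood on both sides. In WT mice 7 of the 9 members were lower in gastrocnemius than in TA (Cs, Idh3a, Idh3b, Idh3g, Suclg1, Fh1 and Mdh2) and 0 were higher, beside 13.2% and 7.92% of 12202 genes. In Eif6+/- mice 2 of the 9 (Idh3a and Fh1) were lower and 0 were higher, beside 10.2% and 6.69% of genes. Of all genes called, 37.5% in WT and 39.6% in Eif6+/- mice were higher in gastrocnemius. With loess alone these shares were 53.9% and 59.1%. The median difference over the members was −0.51 in WT and −0.17 in Eif6+/- mice, where the medians over all genes were −0.033 and −0.026. These comparisons share their arrays with the log2 ratios above, and a low WT level in gastrocnemius enters the WT comparison and the gastrocnemius ratio alike. How far a muscle difference in WT departs from that in Eif6+/- mice is what the difference of the log2 ratios tested, with no member called. The labels do not say whether the muscles of a number came from the same mice.

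For Fh1 the WT levels on the log2 scale were 13.57, 13.46, 13.48 and 13.66 in gastrocnemius and 14.06, 14.14, 14.06 and 14.20 in TA. The groups did not overlap, and the difference of −0.57 (SE 0.078, adjusted p = 0.00403) was called under all 15 alternatives with an adjusted p. In Eif6+/- mice the Fh1 levels were 13.94, 13.85, 14.01 and 13.76 in gastrocnemius and 14.29, 14.26, 14.02 and 14.22 in TA. These did not overlap either, though the highest gastrocnemius value and the lowest TA value lay close together (difference −0.31, SE 0.081, adjusted p = 0.0454).

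For Idh3a the WT levels were 13.50, 14.02, 13.74 and 13.89 in gastrocnemius and 14.42, 14.30, 14.23 and 14.27 in TA. The difference was −0.52 (SE 0.111, adjusted p = 0.0194), with no overlap. In Eif6+/- mice the levels were 14.25, 13.92, 14.10 and 14.10 in gastrocnemius and 14.49, 14.35, 14.32 and 14.38 in TA (difference −0.29, SE 0.079, adjusted p = 0.0490), again with no overlap. Mdh2 levels in Eif6+/- mice did not overlap either (16.49 to 16.93 in gastrocnemius, 16.96 to 17.04 in TA), but Mdh2 was not called there (adjusted p = 0.108). The share of all genes without overlap between the muscles was not counted. WT levels of Idh3b (−0.60, adjusted p = 0.0354) and Suclg1 (−0.53, adjusted p = 0.0186) also had no overlap between the muscles. Those of Idh3g (−0.39, adjusted p = 0.0608), Mdh2 (−0.51, adjusted p = 0.0893) and Cs (−0.22, adjusted p = 0.0918) overlapped. Sucla2 (−0.28, adjusted p = 0.109) and the brightest probe of Ogdh (−0.21, adjusted p = 0.490) were not called. The dim Ogdh probe A_55_P2006277 (−0.21, adjusted p = 0.0760) was called, with no overlap. The WT count was 4 without gastrocnemius pair 1 or 3 or TA pair 2 or 4 (18.2%, 12.7%, 13.7% and 13.3% of all genes called in either direction), and Idh3a, Idh3b, Suclg1 and Fh1 were those 4 each time. The Eif6+/- count by limma was 0 without gastrocnemius pair 2 or TA pair 1 (9.67% and 7.81% of all genes, with 2964 and 2869 at an unadjusted p under 0.05) and 1 (Idh3a) without gastrocnemius pair 4 or TA pair 2 (9.6% and 8.69%).

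**Figure D3:**
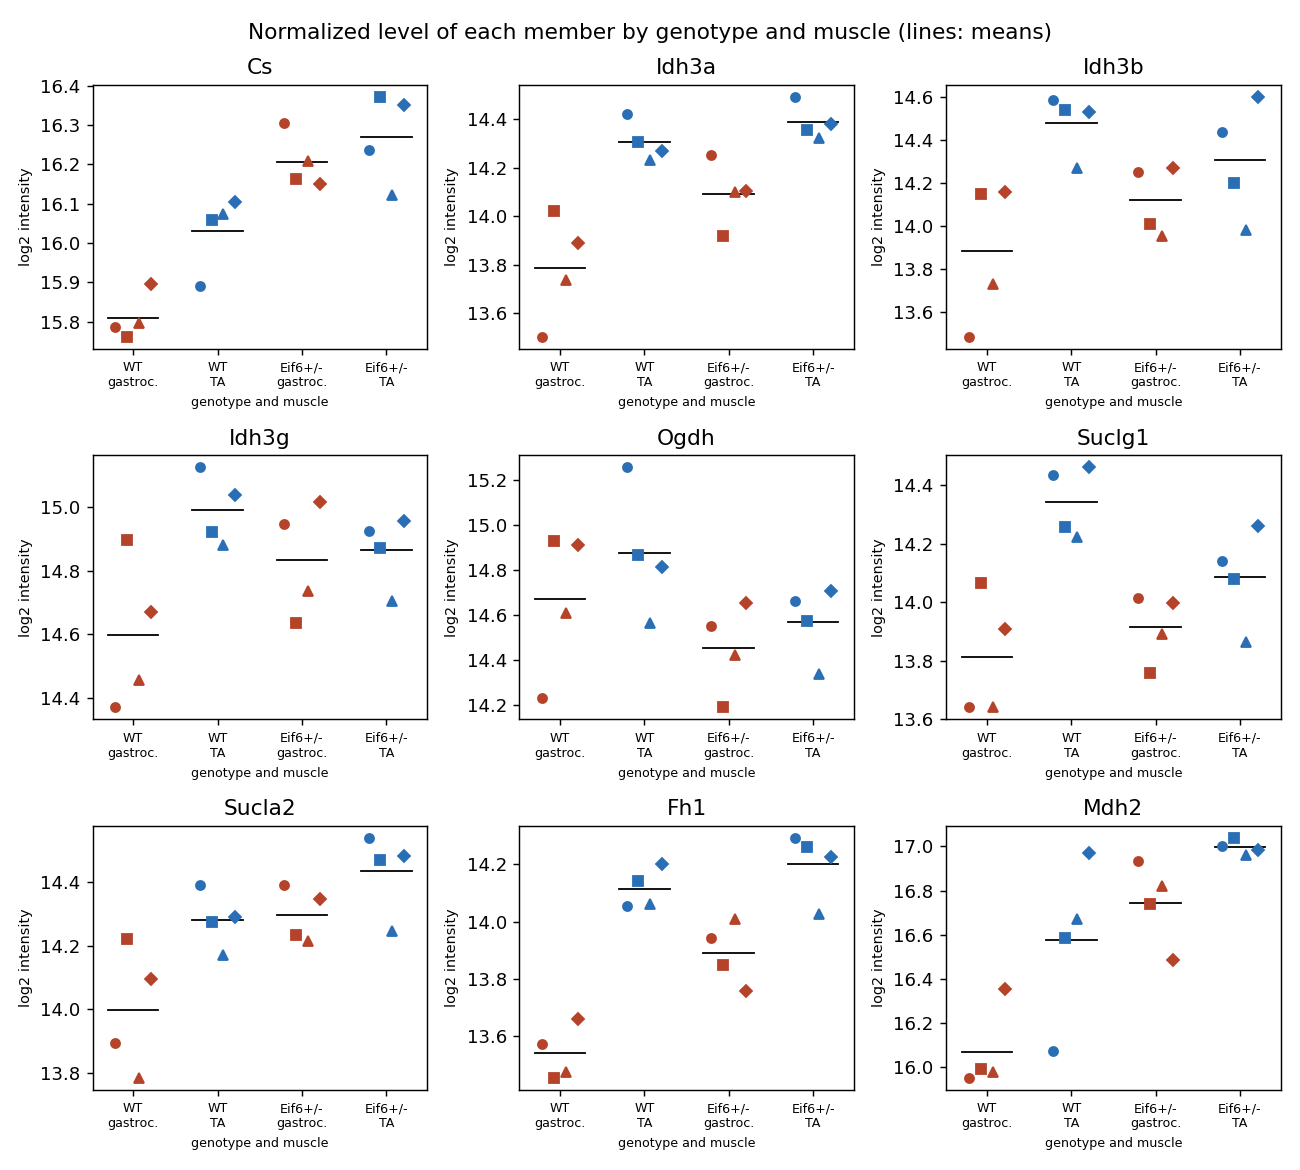
Normalized log2 intensity (vertical axes, not starting at 0) of the brightest probe of each member in WT and Eif6+/- gastrocnemius (red) and TA (blue). Circles, squares, triangles and diamonds are pairs 1 to 4 and lines are means. The WT groups of Fh1, Idh3a, Idh3b and Suclg1 do not overlap between the muscles, nor do the Eif6+/- groups of Fh1, Idh3a and Mdh2. The share of all genes without overlap was not counted.

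**Figure D4:**
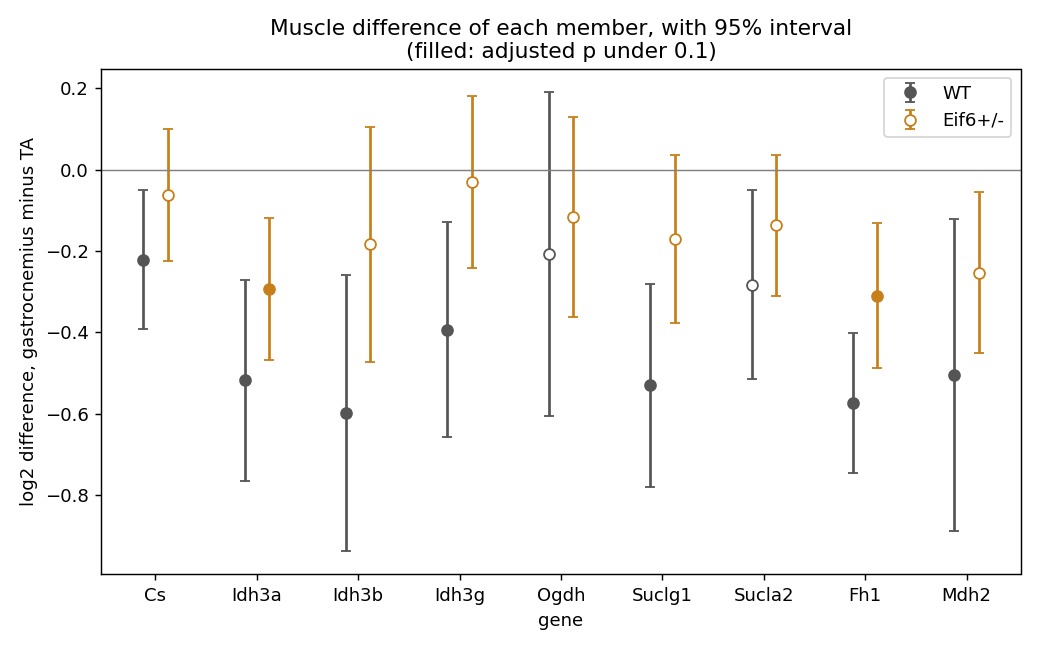
Difference in log2 level, gastrocnemius minus TA (vertical axis), of each member in WT (grey) and Eif6+/- (orange) mice, with 95% intervals. Filled points have an adjusted p under 0.1, which 7 members have in WT and 2 in Eif6+/- mice.

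Markers of other tissue differed between the muscles too. In WT mice 5 of the 6 fat-cell markers tested were higher in gastrocnemius and 0 lower (median difference 2.34), 6 of the 9 slow-fibre markers were higher (median 2.09), and 4 of the 6 connective-tissue markers were higher (median 0.94). In Eif6+/- mice 4 of 6 fat-cell markers were higher and 1, Fabp4, was lower (median 1.56), and the counts higher were 7 of 9 for slow fibres (median 2.17) and 1 of 6 for connective tissue (median 0.44). The log2 of the summed level of the fat-cell markers was between 14.44 and 16.1 in WT gastrocnemius and between 13.74 and 14.01 in WT TA, and their most abundant gene was Fabp4. Of the fast-fibre markers, 0 of 10 were higher and 1 was lower in WT gastrocnemius (median 0.12). The markers of myelinated nerve were higher in gastrocnemius for 5 of 5 in Eif6+/- mice (median 0.60) and 1 of 5 in WT mice (median 0.41). Of the red blood cell markers 2 of 5 were higher in Eif6+/- mice (median 0.44) and 0 of 5 in WT mice (median −0.0075), and Myh2 was higher in Eif6+/- mice (1.99) and not called in WT mice (0.42). The part of these cell types in the muscle differences of the members was not tested.

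The rest of the cycle and its supply were followed through lists chosen by function. Of 9 tested genes that complete the cycle, 2 were higher in Eif6+/- gastrocnemius and 0 lower (median log2 ratio 0.12), namely Sdhb (0.78, adjusted p = 0.0355) and Sdha (0.39, adjusted p = 0.0825), which encode subunits of succinate dehydrogenase. In TA 0 were higher and 3 lower (median −0.17). Among the latter were Sdhc, a membrane anchor of the same enzyme (−0.31, adjusted p = 0.0393), and Suclg2, the GTP-forming partner of Suclg1 (−0.29, adjusted p = 0.0517). Neither was called without TA pair 1 (adjusted p = 0.188 and 0.218) or pair 2 (0.114 and 0.155), and without gastrocnemius pair 3 or pair 4 no gene of any list was called there. Of the 4 assembly factors of succinate dehydrogenase, Sdhaf2 (0.37, adjusted p = 0.0460) and Sdhaf4 (0.37, adjusted p = 0.0652) were higher in gastrocnemius (list median 0.29), and 0 were called in TA (median 0.03). Without gastrocnemius pair 1, Sdha (adjusted p = 0.148) and Sdhaf4 (adjusted p = 0.127) did not pass.

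Among the 13 genes for the entry of pyruvate, 4 were higher and 0 lower in gastrocnemius (median 0.12). The largest was Mpc1, a subunit of the mitochondrial pyruvate carrier (0.64, adjusted p = 0.0320), followed by Pdhb (0.39, adjusted p = 0.0578) and Pdhx (0.35, adjusted p = 0.0694) of the pyruvate dehydrogenase complex and by the phosphatase Pdp1 (0.28, adjusted p = 0.0969). Pdhx and Pdp1 did not pass without pair 1 (adjusted p = 0.115 and 0.131) or pair 2 (0.126 and 0.183), nor Pdhb without pair 2 (0.117), and none of the 4 passed without pair 3 or pair 4. In TA, of 12 tested, Mpc1 was higher (0.34, adjusted p = 0.0483) and the phosphatase Pdp2 lower (−0.38, adjusted p = 0.0483), with a list median of −0.11. Without TA pair 1 the adjusted p was 0.207 for Mpc1 and 0.218 for Pdp2, without pair 2 it was 0.121 for Mpc1, and without pair 3 it was 0.114 for Pdp2. Over the 16 alternatives the TA mean lay between 0.20 and 0.38 for Mpc1 and between −0.74 and −0.34 for Pdp2. Mpc1 no longer passed under 8 of them and Pdp2 under 4.

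Of 16 tested genes for anaplerosis and exchange with the cytosol, 2 were higher and 3 lower in gastrocnemius (median −0.05). Mdh1, the cytosolic malate dehydrogenase, was higher (0.93, adjusted p = 0.0285), as was the oxoglutarate carrier Slc25a11 (0.33, adjusted p = 0.0570). Pck1 (−0.73, adjusted p = 0.0355), Pcx, which encodes pyruvate carboxylase (−0.37, adjusted p = 0.0397), and Idh1 (−0.23, adjusted p = 0.0924) were lower. Without pair 1 Slc25a11 (adjusted p = 0.103) and Idh1 (0.144) did not pass, without pair 2 Idh1 (0.170) did not, and without pair 3 or pair 4 none of these 5 did. Over the 16 alternatives the gastrocnemius mean of Idh1 lay between −0.45 and −0.22. Pck1 and Pcx are also abundant in fat cells, of whose markers 2 of 6 were lower and 0 higher in Eif6+/- gastrocnemius (median −0.28), and the part of fat cells in these values was not tested. By the methods, excess fat and connective tissue were cleaned off the muscles on removal. In TA, again of 16, Me1 was higher (0.41, adjusted p = 0.0579) and Got2, the mitochondrial aspartate aminotransferase, lower (−0.51, adjusted p = 0.0168), with a list median of 0.01. Got2 was not called without pair 1 (adjusted p = 0.113), and Me1 was called without pair 3 alone (adjusted p = 0.0542). Limma called no gene of the 4 lists for a difference of the log2 ratios between the muscles.

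The 5 genes whose log2 ratios were nearest to the median of the members over the 8 arrays were Irak1bp1, Sdr39u1, Myh14, Lyrm4 and Kank3. Their root mean square difference from it was between 0.070 and 0.087, where the median over all 12193 genes compared was 0.309. Of the members, Idh3a (0.10) and Sucla2 (0.11) were nearest to that median, and Mdh2 (0.52) and Ogdh (0.43) were farthest. None of these 5 genes was called in either muscle.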

How the data were processed

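The authors deposited, for each of 8 arrays, scanner output from Agilent Feature Extraction 10.5.1.1 with spot intensities that are not normalized, and with the software's background-subtracted, dye-normalized processed intensities and their log10 ratio of Cy5 over Cy3. They also deposited a table of log2 ratios for each spot. Set against the scanner files, it held loess-normalized ratios of uncorrected intensities (r at least 0.9999 on each array), with the same scale, centring and direction and without the quantile normalization that the methods name. Its columns had medians of 0.0026, 0.00083, −0.0044 and 0.0037 (gastrocnemius, in the order of the pairs) and of 0.0014, −0.00037, 0.0029 and 0.0021 (TA, in the same order). By the labels, Cy5 carried Eif6+/- RNA on every array, whereas the methods name Cy3 alone.

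From the median intensity of each spot the median local background was removed by normexp (offset 50). Loess within arrays followed, in which control spots had weight 0, and then quantile normalization of the 16 channels together. Control spots, and outlier spots (233 to 318 on each array), were left out, and repeated spots averaged. Testing in a muscle required that each of its 4 arrays had the probe well above background in Cy5, Cy3 or both (23803 probes in gastrocnemius, 23393 in TA, 22780 in both). Between 38.8% and 48.6% of probes in a channel were well above background. RefSeq accessions named 27235 of 28685 probes that carry them, out of 55681. A gene stands for its brightest probe, by mean signal.

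Tests used lmFit and eBayes (limma 3.58.1, R 4.3.3) with Benjamini-Hochberg adjustment over all probes tested, and were tested on simulated data. Figures were drawn with matplotlib 3.10.9. The genes named are the members, Eif6, called genes of the pathway lists, the largest first and at most 4 in each direction, list and muscle, the 5 genes nearest to the members' median, and the most abundant gene of marker lists; Myh2 is the sole gene of its list. The members and lists were chosen with earlier results of these data known. Alternatives covered background correction, normalization, signal, the filter, left-out arrays, the test and the threshold.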

Additional observations from a re-analysis of the deposited data

Results flagged for a closer look

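The WT level of Mdh2 in gastrocnemius pair 4, 16.35 on the log2 scale, lay apart from the other 3 WT mice, which were between 15.95 and 15.99, with a gap to the nearest of 0.905 of the whole range. It was the only such value among 66 groups of 4 values examined (log2 ratio, WT level and Eif6+/- level of the 11 probes in each muscle), and chance alone gives about 1 in 20 groups, which is more. The log2 ratio of Mdh2 in that pair was 0.13, the lowest of its muscle. Without pair 4 the mean log2 ratio in gastrocnemius was 0.85 with an adjusted p of 0.155, beside 0.67 and 0.0436 with all 4 pairs.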

How the results depend on the processing

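Member counts were recomputed under each alternative. In gastrocnemius, 3 as reported, the count was 5 with a single fit over all 8 arrays (24.4% of all genes called, beside 1947 of 12610 as reported), 5 by one-class SAM at an FDR of 0.1 (25.3%) and 3 at 0.05 (14.1%), the test and cutoff that the methods name, and 0 by a one-sample Student test of the ratios with Benjamini-Hochberg adjustment, where 3 members and 2584 genes had an unadjusted p under 0.05; it was 0 to 5 with a pair left out (0% to 14.1% of all genes; 2427 or more at an unadjusted p under 0.05 by limma) and 2 or 3 otherwise (5% to 16%). In TA, 4 as reported, it was 0 at an adjusted p under 0.05 (6.75% of all genes), 0 with a normexp offset of 0 (9.73% of all genes called, beside 2012 of 12380 as reported), 1 with the single fit (13.3%), 4 by SAM at an FDR of 0.1 (20.6%) and 0 at 0.05 (7.57%), 0 by the Student test (5 members and 2554 genes at an unadjusted p under 0.05), 0 to 3 with a pair left out (0.549% to 16.3%), and 3 to 5 otherwise (6.8% to 17%). The 5 TA members at an unadjusted p under 0.05 by the Student test were Cs, Idh3a, Idh3g, Suclg1 and Sucla2. Ogdh and Mdh2, which limma called in TA, were not among them. For the difference between muscles the member count was 0 throughout, although 1 gene was called with processed signals and 1 without the filter on dim probes. In WT mice, 7 as reported beside 2577 of 12202 genes, it was 4 at an adjusted p under 0.05 (12.5% of all genes), 4 to 7 with a pair left out (12.7% to 21.3%), and 5 to 8 otherwise (10.2% to 22%). In Eif6+/- mice, 2 as reported beside 2059 of 12202 genes, it was 1 with loess alone (6.28%), 0 to 3 with a pair left out (7.81% to 18.8%), and 2 otherwise (7.25% to 18.5%). The cause was not tested, and a fit with a pair left out also rests on fewer arrays.

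Of the members' own values, 616 kept direction and side of the threshold, 7 that were not called changed sign (2 for Idh3a in TA, with loess alone and with Aquantile, 3 for Idh3g between muscles of Eif6+/- mice and 2 for the Ogdh difference), 14 came to pass the threshold, 74 no longer passed, and 0 called values reversed. For Eif6 and called list genes these were 507, 15, 10, 107 and 0. Loess alone and Aquantile give the same log2 ratios, so these totals count such values under both. The alternatives for those genes, and SAM at 0.05, were chosen after seeing the data. With loess alone, calls between muscles fell from 2577 to 1523 in WT and from 2059 to 766 in Eif6+/- mice, and the share higher in gastrocnemius went from 37.5% to 53.9% and from 39.6% to 59.1%. Processed signals gave 1206 calls in gastrocnemius beside 1947 and 842 in TA beside 2012.

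Pair numbers were not used to link the muscles, and whether they do is not known. Over genes, the correlation between the gastrocnemius and TA samples of a number was −0.36 to 0.089 for log2 ratios, −0.38 to 0.19 for WT and 0.015 to 0.19 for Eif6+/- levels, and the number's own partner was the best match for 0, 1 and 2 of 4. With numbers as blocks, 0, 5 and 2 members were called for the difference, in WT and in Eif6+/- mice (0%, 15.2% and 18.4% of all genes; for the difference, limma gave 838 genes at an unadjusted p under 0.05). With 4 pairs a muscle, precision limits every count. The brightest probe of every member was well above background, while the Ogdh probe A_55_P2006277 was dim (mean log2 signal 7.80).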

Other observations

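The marker lists not given above were as follows. In TA, 4 of 5 red blood cell markers (median log2 ratio −0.67) and 3 of 5 myelinated-nerve markers (median −0.29) were lower in Eif6+/- muscle and 0 higher, and 0 of either list were called in gastrocnemius (medians −0.27 and −0.10). Of the skeletal muscle fibre markers, 2 of 5 were lower in gastrocnemius (median −0.37) and 3 of 5 in TA (median −0.39). In gastrocnemius 1 fast-fibre marker was higher and 3 were lower, and in TA 2 were higher and 2 lower, of 10. Of the leukocyte markers tested, 1 of 2 was lower in gastrocnemius and 1 of 4 in TA, and of 3 endothelial markers 0 were called in gastrocnemius and 1 was lower in TA. Of 6 connective-tissue markers 0 were called in either muscle, and of 6 fat-cell markers 3 were higher in TA (median 0.55). The brown fat list had 1 gene tested, with 0 called. Between muscles, 1 of 5 muscle fibre markers was lower in WT gastrocnemius, and in Eif6+/- gastrocnemius 1 of 10 fast-fibre and 1 of 3 endothelial markers were lower and 1 of 2 leukocyte markers was higher.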
